A study of Mus musculus with 4 samples.

Results

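The regions described here are 1885 CTCF peaks of gene deserts in cultured mouse cortical neurons, out of 33075 peaks on chromosomes 1 to 19 and 33820 in the whole list. A peak was taken when its summit lay more than 100 kb from the nearest base of any protein-coding gene in RefSeq's gene bounds for GRCm38.p6, the build of the peaks (mm10). Position alone chose the members, so their strength, width and spacing were not used in the choice. The 31190 other autosomal peaks serve as the comparison, and 13032 of those lay outside protein-coding genes but within 100 kb of one. A desert means here the stretch between 2 neighbouring protein-coding genes, and its core is the part more than 100 kb from both.

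CTCF was profiled by chromatin immunoprecipitation and sequencing (ChIP-seq) in primary neurons dissociated from the cortex of Swiss-Webster embryos at embryonic day 16 and collected at day 13 in vitro. All samples carry the genotype label WT and the treatment label None; the culture text names the topoisomerase poison etoposide, which belongs to no sample here. The samples are 2 CTCF immunoprecipitations, called biological replicates by the labels, and 2 inputs, from about 15M cells per replicate. The analysed data are 1 list of peaks joined over both immunoprecipitations at an irreproducible discovery rate (IDR, a measure of how well ranks agree between replicates) of at most 0.05, so there is 1 condition and no group to test against. Neither separate animals nor the number of embryos behind a culture is given, and a peak list holds no expression by which the labelled cell type could be checked.

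The zinc finger protein CTCF recognises a long, GC-rich DNA motif and halts the cohesin complex as it extrudes loops of chromatin. Many of its sites mark the borders of topological domains, within which enhancers meet promoters. Gene deserts often flank developmental regulator and cell adhesion genes and can carry their distant enhancers, together with long non-coding RNA (lncRNA) and microRNA genes.

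The strength of a peak is given as −log10 p in each of 2 replicate columns, and as their sum, the joint strength. Neither column can be matched to a sample label, hence the names first and second column. The first column is low over the whole autosomal list, with a median of 31.4 against 130.5 in the second, and the depth of the libraries is unknown. All intervals are at 95% and cover counting error only: shares have exact Clopper-Pearson intervals and medians exact binomial intervals from order statistics. No p-value is given, because peaks of 1 list are not replicates.

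Some desert summits can be seen in sequence, because they fall in the promoter window of a gene in RefSeq's promoter table (GRCm38.p6; 250 bases before to 50 after a gene's start). This held for 18 desert summits, all at lncRNA genes. Windows were searched on both strands for 2 forms of the CTCF core motif: CCNNNAGNNGGC, matched exactly, and CCNNNAGGGGGC with at most 1 fixed letter differing, a form chosen after the windows had been read. The forms share all letters but 2, which are free in the first and GG in the second. Of the windows, 5 are printed, 5′ to 3′ on the strand of the gene, with matches to the second form in capitals. They are the strongest, a strong one without a match to either form, and the one in the host gene of a microRNA cluster. The others are the one whose match lies closest to the summit, and the only one that also matches the first form. The names follow in this order. They are the windows of Gm13652 (chr2:75137926-75138225, minus strand), 4930545L08Rik (chr9:111918680-111918979, minus strand), Mir100hg (chr9:41474643-41474942, plus strand), 4930471G24Rik (chr13:47667300-47667599, plus strand) and Gm11691 (chr11:114251593-114251892, plus strand).
Gm13652: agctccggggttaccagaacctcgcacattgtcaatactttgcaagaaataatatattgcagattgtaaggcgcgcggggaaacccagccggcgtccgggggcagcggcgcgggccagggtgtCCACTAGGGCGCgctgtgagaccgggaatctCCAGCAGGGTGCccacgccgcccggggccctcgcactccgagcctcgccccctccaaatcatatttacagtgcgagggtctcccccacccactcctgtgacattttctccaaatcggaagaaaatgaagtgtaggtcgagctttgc
4930545L08Rik: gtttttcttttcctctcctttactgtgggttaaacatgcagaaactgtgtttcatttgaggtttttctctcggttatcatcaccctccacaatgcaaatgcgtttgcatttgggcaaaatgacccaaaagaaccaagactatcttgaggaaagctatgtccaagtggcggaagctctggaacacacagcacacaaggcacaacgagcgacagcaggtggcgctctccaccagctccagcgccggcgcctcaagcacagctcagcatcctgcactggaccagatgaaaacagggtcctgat
Mir100hg: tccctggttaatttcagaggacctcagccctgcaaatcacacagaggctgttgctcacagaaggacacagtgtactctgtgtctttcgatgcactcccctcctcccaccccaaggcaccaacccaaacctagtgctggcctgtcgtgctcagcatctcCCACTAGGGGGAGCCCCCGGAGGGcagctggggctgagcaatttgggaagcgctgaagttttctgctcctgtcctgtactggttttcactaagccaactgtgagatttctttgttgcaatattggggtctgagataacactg
4930471G24Rik: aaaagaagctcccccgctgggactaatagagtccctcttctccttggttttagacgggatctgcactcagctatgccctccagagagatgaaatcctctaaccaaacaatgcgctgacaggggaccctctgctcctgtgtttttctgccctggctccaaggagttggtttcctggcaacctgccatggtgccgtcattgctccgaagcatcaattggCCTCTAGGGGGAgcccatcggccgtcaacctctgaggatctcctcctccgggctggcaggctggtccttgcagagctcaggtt
Gm11691: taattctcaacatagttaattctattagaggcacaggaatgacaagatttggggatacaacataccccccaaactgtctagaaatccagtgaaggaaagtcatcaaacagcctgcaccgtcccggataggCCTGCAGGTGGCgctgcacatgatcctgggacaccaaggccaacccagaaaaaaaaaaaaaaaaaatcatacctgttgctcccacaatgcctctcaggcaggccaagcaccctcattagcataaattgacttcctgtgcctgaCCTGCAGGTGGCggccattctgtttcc

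The exact form was found in 1 of the 18 windows with a desert summit, that of Gm11691 (5.56%, 0.14 to 27.3). It had 2 copies there, centred 21.5 and 121.5 bp from the summit. The form occurred in 34.2% of 1928 windows with another summit, 3.31% of the 1996 windows more than 100 kb from protein-coding genes without a summit, and 8.73% of all 31396 autosomal windows. The gap to windows with another summit did not hold at a distance of 50 kb, where the exact form was in 34.4% of 32 windows (18.6 to 53.2) against 33.9% of 1914. The median GC content of the windows was 48.8% with a desert summit, 63.3% with another summit and 45% in deserts without a summit, and its part in these shares was not tested. With 18 windows the interval is wide, and a missing match says only that these letters are not in 300 bases.

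The second form was chosen on these same windows, so its count is a description of them. It was found in 6 of the 18 (33.3%, 13.3 to 59.0), and in 14.7% of all autosomal windows. The share was 52.3% (50.1 to 54.6) of the 1928 windows with another summit. It was 4.56% of the 1996 windows more than 100 kb from protein-coding genes without a summit. In the 6 the centre of the nearest match lay between 1.5 and 22.5 bp from the summit. At 4930471G24Rik it lay 1.5 bp away, at Mir100hg 2.5 bp, at 4930432J09Rik 5.5 bp, at Gm13652 13.5 bp, at Gm11691 21.5 bp and at Gm38542 22.5 bp. In Mir100hg the matches on opposite strands abut, starting at bases 159 and 171 of the window, with the summit at base 162. In Gm13652 the matches start at bases 124 and 155, and the summit is at base 116.

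The peaks behind these windows span most of the range of desert strengths. At Gm13652, whose summit also lies inside the lncRNA gene 2600014E21Rik, between Mtx2 (a mitochondrial outer membrane protein gene) and the predicted gene Gm50595, the columns gave 545 and 487 and the joint strength was 1032. At 4930545L08Rik, whose window matches neither form as searched, they gave 393 and 443, a joint strength of 835. That window does hold acagcaggtggc, 1 letter away from the first form, for which no mismatch was allowed. Both of these peaks had near-equal columns, unlike most desert peaks. At Mir100hg the columns gave 219 and 446, at 4930471G24Rik 64.3 and 187, and at Gm11691 36.6 and 168. The weakest of the 18 was at Gm13848, with 14.6 and 32.0 in the columns.

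Desert peaks were sparse. They made up 5.70% of autosomal peaks (5.45 to 5.95), while desert cores covered 27.3% of the autosomal sequence between the outermost protein-coding genes, or 654 Mb. Their density was 2.87 peaks per Mb against 17.9 per Mb elsewhere, a ratio of 0.161 (0.153 to 0.168). Against sequence outside genes but within 100 kb of one, which held 17.1 peaks per Mb, the ratio was 0.168 (0.160 to 0.176). Deserts were thus as sparse relative to the intergenic sequence near genes as to all other sequence. Assembly gaps were not subtracted from the lengths.

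Density fell with every step away from genes. It was 68.7 peaks per Mb within the first kb outside a gene, 13.4 between 10 and 50 kb and 7.90 (7.499 to 8.32) between 50 and 100 kb. Inside the deserts it went on falling, to 4.78 (4.48 to 5.09) between 100 and 200 kb, 2.69 (2.49 to 2.89) up to 500 kb, 1.45 (1.26 to 1.67) up to 1000 kb and 0.79 (0.59 to 1.04) beyond. None of these intervals overlap, and the nearest desert sequence was 6.04 times as dense as the farthest. The threshold of 100 kb thus cuts a gradual slope. The median desert summit lay 199 kb from a protein-coding gene (quartiles 136 and 346 kb), 249 lay more than 500 kb away and 52 more than 1000 kb.

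**Figure D1:**
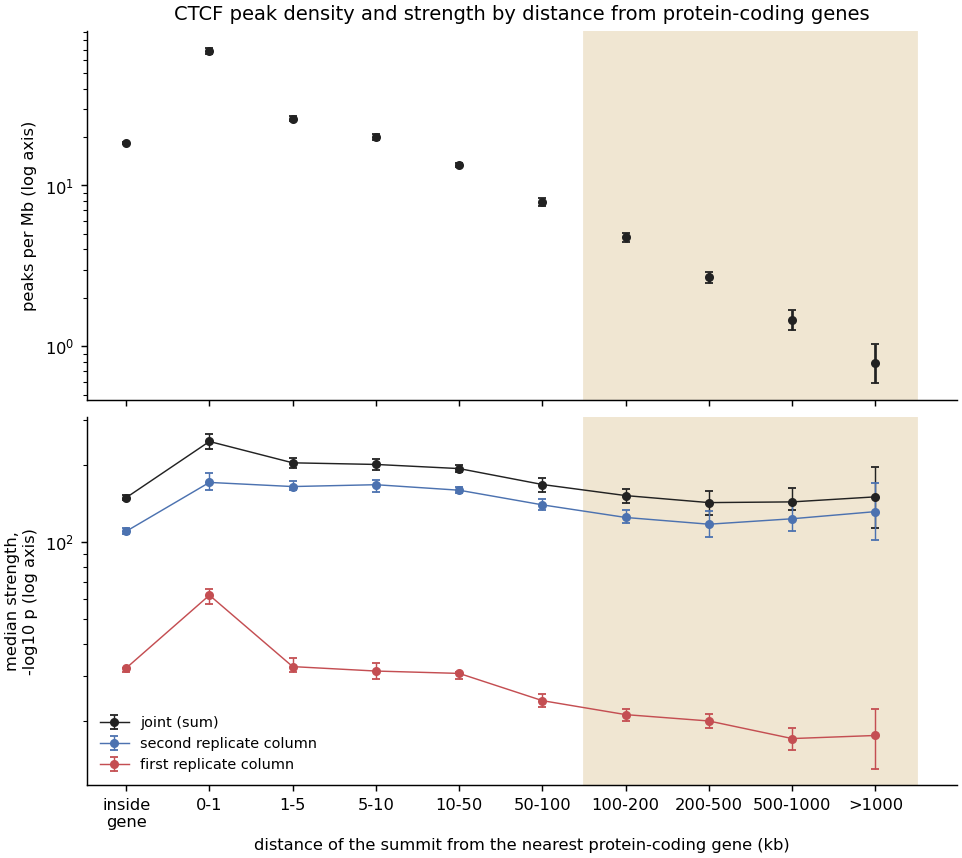
Peak density (upper panel, peaks per Mb, log axis) and median strength (lower panel, −log10 p, log axis) of autosomal CTCF peaks in classes of distance from the nearest protein-coding gene, with 95% intervals as bars and the desert classes shaded. Density falls through all desert classes, from 4.78 to 0.79 peaks per Mb, while the median of the second column stays between 117 and 131 and that of the first column between 17.1 and 21.2.

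The 3 summits closest to the threshold on each side are given as a description. Just inside lay peaks at 100.041, 100.203 and 100.238 kb, on chromosomes 3, 18 and 9, with joint strengths of 330.5, 129 and 73.4. Just outside lay peaks at 99.959, 99.935 and 99.831 kb, on chromosomes 18, 18 and 10, with 48.4, 67.2 and 269.8. The values on both sides run from weak to strong.

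Desert peaks were also weaker than other autosomal peaks as a whole, and relatively more so in the first column than in the second. The median joint strength was 147 (139.7 to 153, n = 1885) in deserts and 169.5 in other autosomal peaks, a difference of −22.8 (−30.4 to −15.9). It was 198 outside genes within 100 kb, a difference of −51.7 (−59.8 to −44.0), and 148.7 (145.6 to 152.2) inside genes, an interval that lies within that of desert peaks. The first column had a median of 20.0 (19.7 to 21.0) against 32.2, a difference of −12.2 (−12.7 to −11.2). The second had 124 (118 to 128) against 132, a difference of −8.14 (−14.1 to −2.71). The interval of this second-column difference spanned 0 with a distance of 50 kb (−1.49, −6.93 to 5.69) or 200 kb (−10.3, −21.5 to 0.85). The first column was thus at 0.621 of the other peaks' median and the second at 0.938. The order of the columns was the same against peaks outside genes within 100 kb, though there both were clearly lower, at 0.601 and 0.769 of medians of 33.2 and 161. Peaks inside protein-coding genes had a second-column median of 109.9, below that of desert peaks.

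The log2 ratio of second to first column gives this in 1 value per peak. Its median was 2.41 (2.36 to 2.48) in deserts and 1.86 in other peaks, a difference of 0.54 (0.49 to 0.62). Against peaks outside genes within 100 kb, with a median of 2.06, the difference was 0.35 (0.30 to 0.42), and the median inside genes was 1.70. The second column was higher at 1849 desert peaks (98.1%, 97.4 to 98.7), against 90.7% of all autosomal peaks. It was at least 4-fold the first at 1296 desert peaks (68.8%, 66.6 to 70.8), against 46.6% of all. Only 585 desert peaks (31.0%) exceeded the autosomal median of the first column, against 50% by construction, while 890 (47.2%) exceeded that of the second, again against 50%. Peaks above the median in the second column alone numbered 409 (21.7%, 19.9 to 23.6), against 12.6% of all autosomal peaks. Both columns were above their medians at 481 (25.5%), against 37.3% of all. Peaks above it in the first column alone numbered 104 (5.52%, 4.53 to 6.65), against 12.6%. Whether this goes with depth or background of 1 library was not tested, since the columns cannot be tied to libraries and the list holds no input values.

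**Figure D2:**
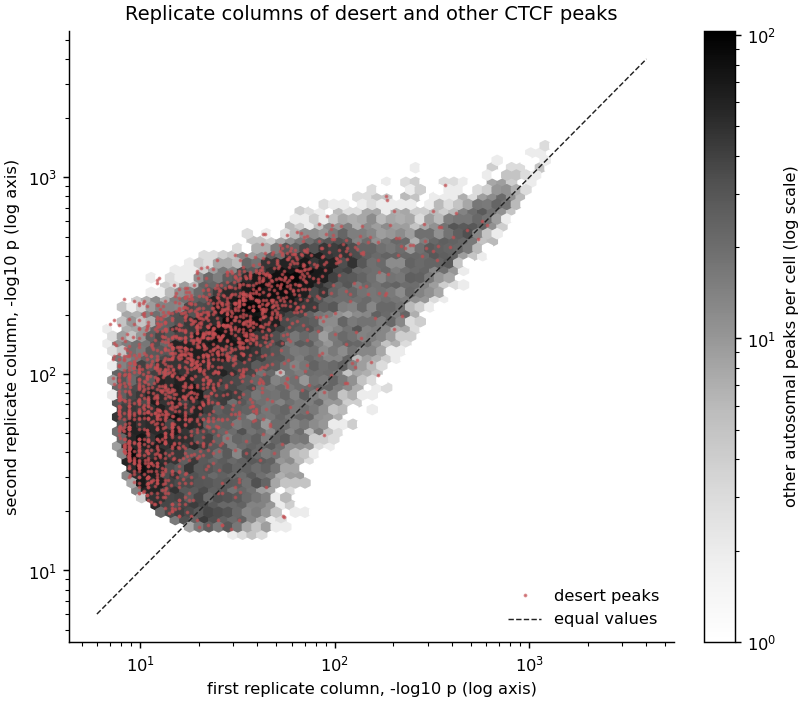
First (x axis) and second (y axis) replicate column of each autosomal peak, −log10 p on log axes: other peaks as grey cells shaded by their number, desert peaks as red points, equal values as a dashed line. Desert peaks gather above the line, with 1849 of 1885 higher in the second column, and are sparse in the arm of other peaks with near-equal columns.

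The top of the list held few desert peaks. The strongest ranked 317 among autosomal peaks, so the 100 strongest included 0, and 12 were among the 1000 strongest (1.20%). Among the 1000 highest of the first column were 7 (0.7%), and among those of the second 17 (1.7%). Desert peaks made up 5.70% of all autosomal peaks. A joint strength of 500 or more was reached by 77 desert peaks (4.08%, 3.24 to 5.08), against 10.3% of all autosomal peaks, and 1000 or more by 6 (0.32%), against 2.17%. The cap of the global IDR, 5 on the −log10 scale, was reached by 252 (13.4%, 11.9 to 15.0), against 25.2% of all.

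The share of desert peaks changed with strength in each column, but not alike. When all autosomal peaks were ranked into deciles by the first column, desert peaks fell from 10.8% of the lowest decile to 1.36% of the highest. By the second column they made up 3.66% of the lowest decile, 7.86% of the fifth and 3.26% of the highest. By width they went from 9.82% of the narrowest decile to 1.42% of the widest. The columns therefore gave different shapes, a steady fall in the first and a hump in the second.

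**Figure D3:**
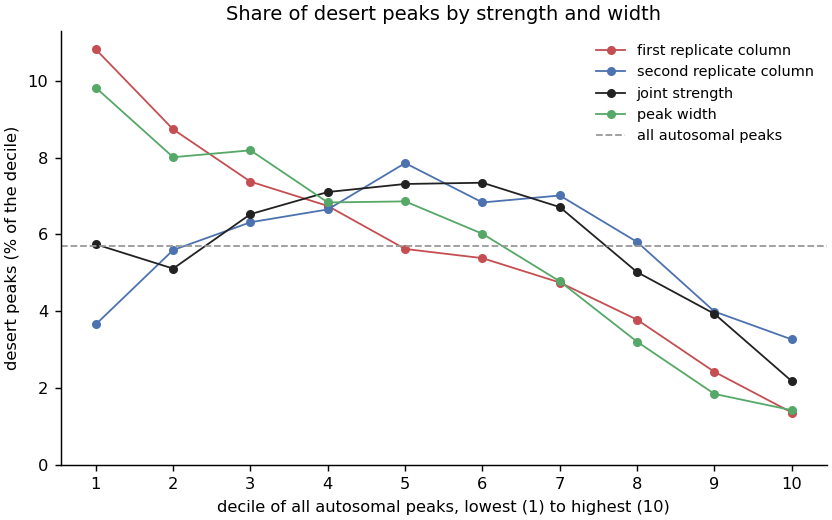
Desert peaks as a percentage of each decile of all autosomal peaks, ranked from lowest (1) to highest (10) by the first column, the second column, the joint strength or the peak width; the dashed line is their share of the whole list, 5.70%. The share falls at every step of the first column and, apart from small rises, with width, while the second column and the joint strength peak in the middle deciles.

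Peaks in deserts were narrow. Their median width was 964 bp (946 to 980) against 1142 bp in other peaks, a difference of −178 bp (−197 to −161). A width of 2500 bp or more occurred at 13 desert peaks (0.69%, 0.37 to 1.18), against 3.14% of all. The widest, 3553 bp, lay between Celf2, an RNA-binding protein gene, and Gata3, a T cell transcription factor gene, with 55.3 and 306 in the columns. The next, 3124 and 3057 bp, lay inside the lncRNA genes Gm52287 and Gm32810. The summits that the replicates gave to 1 desert peak differed by a median of 26 bp (24 to 27), against 29 bp in other peaks.

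Desert peaks stood far apart. The nearest other summit lay a median of 62.9 kb away (57.1 to 67.8), against 11.4 kb for other peaks. No other summit lay within 100 kb of 679 desert peaks (36.0%, 33.9 to 38.2), against 5.64% of all autosomal peaks. Another summit within 5 kb was found for 166 (8.81%, 7.57 to 10.2), against 26% of all. Spacing and density are not independent measures. Desert peaks with summits at most 5 kb from the next formed 67 pairs and 10 groups of 3. The strongest group of 3, with joint strengths from 151 to 693, lay between Eef2kmt and Rbfox1, a neuronal splicing factor gene, and another lay beside the microRNA gene Mir137.

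These differences held chromosome by chromosome for most measures. On all 19 autosomes desert peaks were sparser, narrower and lower in the first column, and their log2 ratio of columns was higher. First-column medians ran from 16.6 (chromosome 14) to 25.5 (chromosome 18) in deserts and from 29.3 to 36.6 in other peaks, so the ranges did not overlap. Widths did not overlap either, at 892.5 to 1018 bp against 1092 to 1189 bp, nor did densities, at 2.38 to 3.68 against 14.2 to 26.2 peaks per Mb. Second-column medians did overlap, at 88.9 to 142 against 117 to 142. They were lower in deserts on 15 chromosomes and higher on chromosomes 2, 3, 10 and 11. The joint median was lower on 18, chromosome 11 being the exception at 172 against 170.1. The share of peaks in deserts ran from 2.96% on chromosome 19 to 8.93% on chromosome 12.

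**Figure D4:**
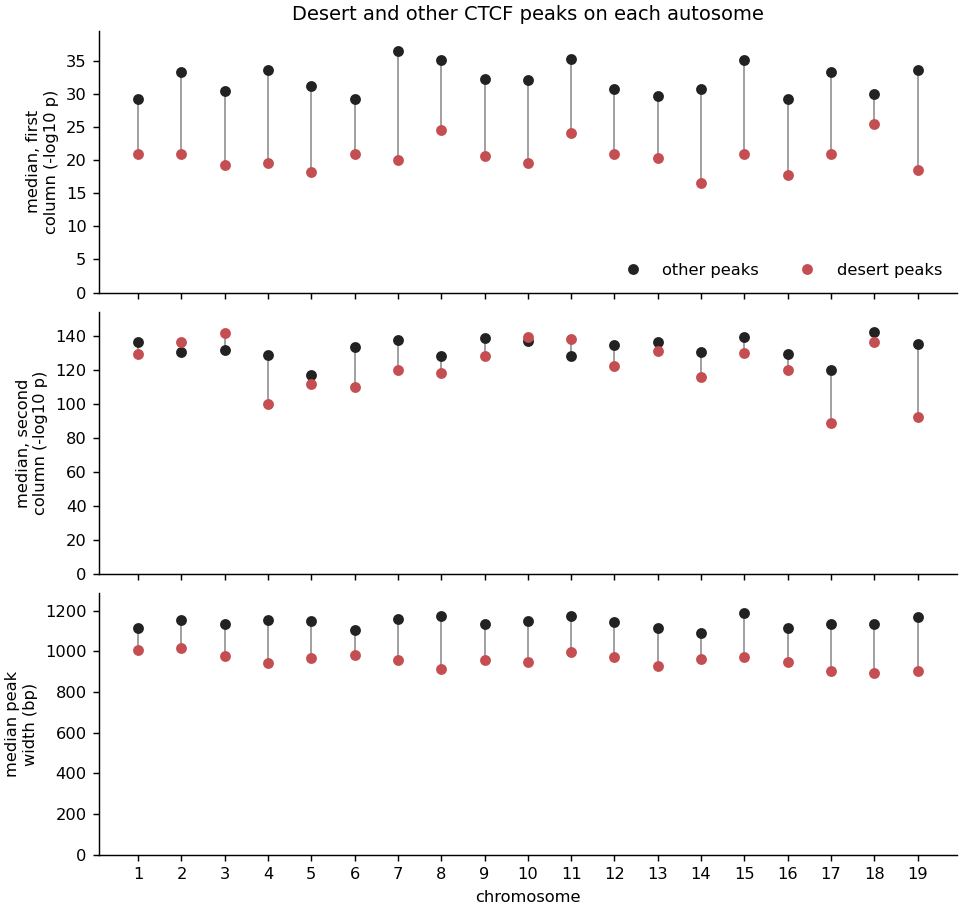
Median first column, second column (both −log10 p) and peak width (bp) of desert peaks (red) and other peaks (black) on each autosome, joined by a grey line. The first column and width are lower in deserts on all 19 chromosomes, and the second column on 15.

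Within the deserts, distance changed the columns unevenly. The first column fell from a median of 21.2 (20.0 to 22.3) at 100 to 200 kb to 17.1 (15.4 to 18.7) at 500 to 1000 kb, and was 17.6 (13.04 to 22.3) beyond. The second stayed at 124, 117, 123.0 and 131 in the 4 classes, with overlapping intervals, and so did the joint strength at 151, 142, 143 and 149.8. The log2 ratio rose from 2.35 (2.27 to 2.40) to 2.87 (2.60 to 3.02). The share at the IDR cap was 14.8%, 13.97%, 5.58% and 9.62%. Between these classes the joint value and the second column did not differ beyond their intervals.

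The 10 strongest desert peaks had joint strengths from 914 to 1279. The strongest lay on chromosome 1 (7396680 to 7398959) inside the lncRNA gene Gm26901, 224 kb from Pcmtd1 and 962 kb from Sntg1, a neuronal syntrophin gene. Its columns gave 367 and 911. The next lay on chromosome 12 (99083241 to 99084919), between Ttc8, which encodes a part of the ciliary BBSome, and the forkhead gene Foxn3, 101 and 106 kb from them. Its columns were nearly equal, at 606 and 574. On chromosome 13 a peak with 569.8 and 600.1 in the columns (joint strength 1170.0) stood 499.7 kb from the homeobox gene Irx1. The lowest column value of these 3 peaks was 367.

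The other peaks of the 10 had joint strengths from 914 to 1082. A peak of 1082 lay between Nectin1, an adhesion gene, and Thy1, which encodes a glycoprotein of neuronal surfaces, with 420.3 and 661 in the columns. A peak of 1032 was that of the Gm13652 window. Inside Gm40421, between the kinase gene Prkd1 and the ubiquitin ligase gene G2e3, stood a peak with 478 and 542. The peak between the chromatin remodeller gene Chd7 and Clvs1 had 319 and 670.4, and that inside Gm31686 beside the neuropeptide gene Npvf had 184 and 799.6. The last of the 10 were near Ppp6c, a phosphatase subunit gene, with 186 and 764, and between Aard and the zinc transporter gene Slc30a8, with 352 and 562. Of the 10, 4 lay inside an lncRNA gene, 5 within 200 kb of a protein-coding gene, and 8 had the higher value in the second column. Over all desert peaks 20.0% lay inside a gene that is not protein-coding, of any kind. Within 200 kb lay 50.3% of them, and the second column was higher at 98.1%.

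The 10 remotest peaks lay 1595 to 2188 kb from any protein-coding gene. The farthest, on chromosome 18 between the RNA-binding protein gene Celf4 and the lipid kinase gene Pik3c3, was also strong, with 321 and 423 in the columns and a joint strength of 744. A second peak of that desert, 241 kb away, had 18.03 and 189.7. Of the 10, 6 lay beside a cadherin, protocadherin or other gene of the adhesion list described further on. They were the peaks beside Pcdh20 and Pcdh9 (9.35 and 114), Pcdh7 (22.3 and 173), Cdh20 (18.4 and 66.3), Cdh6 and Cdh9 (26.0 and 152), Lrrc4c (42.7 and 517) and Pcdh10 (29.9 and 121). Peaks so remote can lie only in wide deserts. Genes of that list stood beside long ones, with a median core of 3.35 Mb against 0.246 Mb over all genes beside a desert. The share of all desert peaks beside the list was not counted. The peak beside Lrrc4c, which encodes a netrin-G ligand of synapses, reached a joint strength of 560.0, and the nearest other summit was 1622 kb away. All 10 had no other summit within 100 kb, against 36.0% of all desert peaks. The autosomal median of the joint strength was exceeded by 6 of the 10, against 44.2% of all desert peaks.

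Peaks were spread over many deserts. Of 1376 deserts, 764 (55.5%) held a desert peak, 310 of them exactly 1, and 97 held 5 or more with 608 peaks between them. A further 6 peaks lay outside the outermost protein-coding genes of their chromosomes. Deserts with a core up to 100 kb held a peak in 24.5% of cases, those from 500 to 1000 kb in 81.8% and those over 2000 kb in 95.1%. Density went the other way, from 7.27 peaks per Mb in the smallest class through 3.06 to 1.36 in the largest. A larger desert thus more often held a peak, at a lower density.

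The fullest desert was that between Rps24, a ribosomal protein gene, and Zmiz1, a transcriptional coactivator gene, on chromosome 14, with 14 peaks in a core of 761 kb. Its peaks were weak, with a median joint strength of 64.1 and a highest value of 341. The desert between Matn1, a cartilage matrix protein gene, and the receptor phosphatase gene Ptpru on chromosome 4 came next with 12, of median 113 and up to 637. It was also the densest with a core of at least 300 kb, at 19.6 peaks per Mb, above the mean density outside deserts. Between the zinc finger gene Sall3 and the galanin receptor gene Galr1 on chromosome 18 lay 11 peaks with a median of 308, of which 8 stood between 810.1 and 1019.8 kb from Sall3. That cluster held joint strengths of 787, 761 and 607.

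The remaining deserts of the 10 with most peaks were mixed. Between the proliferation marker gene Mki67 and the DNA repair gene Mgmt lay 10 peaks of up to 766. Another desert, between Gm36448 and Dad1, held 11, all inside the T cell receptor alpha locus. Deserts with 9 peaks each were those of Tmem182 and Pou3f3 (a cortical POU factor gene), Gm4868 and Tmem132c, Adamts16 and Irx1, Nphp4 and Ajap1, and Fut8 and Gm6657. Between Adamts16 and Irx1 the joint strengths ran from 35.0 to 1170.0, almost the full range of desert peaks. Between Nphp4 and Ajap1 none exceeded 156. Of the 103 peaks in these 10 deserts, 100 had the higher value in the second column and 34 exceeded the autosomal median of the joint strength. Over all desert peaks these shares were 98.1% and 44.2%, and over all autosomal peaks 90.7% and 50%.

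**Figure D5:**
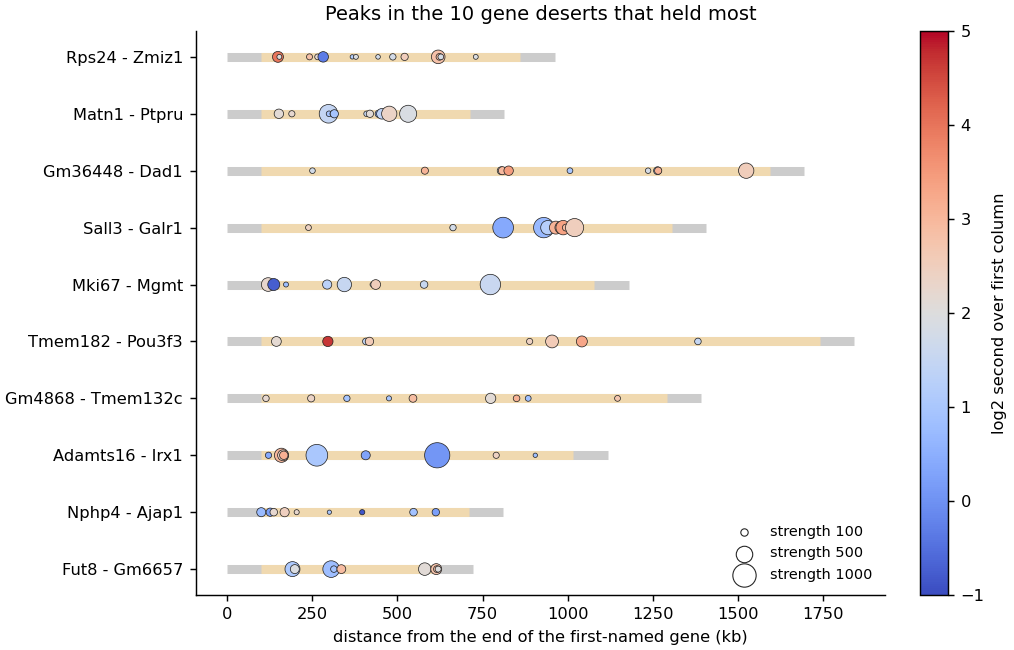
Peaks of the 10 deserts with most peaks, by distance from the end of the first-named gene (x axis, kb); bars span the desert, with its core in tan and the outer 100 kb in grey, circle area is joint strength and colour the log2 ratio of second to first column. Circles crowd together between Sall3 and Galr1, and the largest, 1170.0, lies between Adamts16 and Irx1.

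Some wide deserts held no desert peak. The widest, of 2775 kb between Cox7c, a respiratory chain subunit gene, and Edil3 on chromosome 13, had no summit in the whole gap, and neither had that of 2499 kb between the neuronal gene Lingo2 and 1700009N14Rik. Between Serpinb8 and the cadherin gene Cdh7 (2373 kb) 1 summit lay in the outer 100 kb and 0 in the core. The deserts between 4931408C20Rik and Gm597 (2089 kb) and between the protocadherin gene Pcdh9 and Spertl (1988 kb) had none in the whole gap. The 3 named first were the only empty ones of 61 with a core over 2000 kb. How well reads map to these stretches was not analysed here.

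The cores are not free of genes of other kinds. At 426 desert peaks (22.6%, 20.7 to 24.6) the summit lay inside or within 1 kb of a gene that is not protein-coding, against 14.8% of all autosomal peaks. Among peaks outside protein-coding genes but within 100 kb of one the share was 21.5% (20.8 to 22.2), an interval that overlaps that of desert peaks. Such places made up 13.98% of the desert sequence, and the ratio of shares was 1.61. Within 1 kb of the end of such a gene lay 6.55% of desert summits against 2.54% of the sequence, a ratio of 2.58. Most of these genes, at 377 peaks, were lncRNA genes.

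Peaks at such genes were close in strength to the rest. Their median joint strength was 156 (138 to 169) against 145 (136 to 152) over 1 kb from any gene, and the second column gave 124 against 123, so the intervals overlapped. The first column was 23.7 (21.0 to 26.6) against 19.7 (18.4 to 20.3), which did not overlap. Among lncRNA genes 1700019L22Rik, of 799.5 kb, and Lncpint, a transcript induced by p53, held 5 each, with joint strengths up to 218 and 328. Morrbid, an lncRNA known from the survival of myeloid cells, held 3, the strongest at 905. Mir100hg, the host of a microRNA cluster, also held 3, of 184, 432 and 665.

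Antigen receptor loci count as deserts here because their gene segments are not classed as protein-coding. They held 26 desert peaks (1.38%), without which 1859 remain. Immunoglobulin kappa held 8, with a median joint strength of 95.5, and the heavy chain 6, with a median of 43.3. The T cell receptor alpha locus held 11, with a median of 113, and the beta locus 1, with 48.3 and 418 in the columns. These loci are rearranged in lymphocytes. The strongest of their peaks were the one of the beta locus (joint strength 467) and, in the alpha locus beside Dad1, a pair 4.749 kb apart with joint strengths of 233 and 431.

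MicroRNA genes of deserts form a small group whose mature products can be shown. Of 100 hairpins more than 100 kb from protein-coding genes, 24 had a desert summit within 20 kb, at 13 summits. Of the 24 hairpins, 14 shared 1 summit on chromosome 12. The mature sequences of 5 are printed from RefSeq (GRCm38.p6), with the seed, bases 2 to 8, in capitals; the 3p products of miR-29a and miR-29b share the seed AGCACCA, and the other seeds are unlike.
mmu-miR-137-3p: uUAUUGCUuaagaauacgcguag
mmu-miR-125b-5p: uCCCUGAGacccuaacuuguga
mmu-miR-29a-3p: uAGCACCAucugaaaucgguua
mmu-miR-29b-3p: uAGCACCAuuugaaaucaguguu
mmu-miR-205-5p: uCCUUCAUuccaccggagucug

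Mir137, a neuronal microRNA gene 118433857 to 118433929 on chromosome 3, had 3 peaks in front of it, the most of these hairpins. They lay 3.42, 5.15 and 7.97 kb away. The nearest was weak, with 25.04 and 17.98 in the columns, the middle one gave 57.7 and 383, and the farthest 116 and 90.2. The outer peaks of the trio had the higher value in the first column, which is rare among desert peaks. Mir125b-1, within Mir100hg on chromosome 9, had a peak at 2.15 kb with 17.1 and 167 in the columns. Mir205, an epithelial microRNA gene on chromosome 1, had a peak at 3.345 kb with 22.8 and 130.4.

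The pair Mir29a and Mir29b-1 on chromosome 6, which rise as neurons mature, shared 1 peak about 13.1 and 12.8 kb away, with 70.4 and 421 in the columns and a joint strength of 491. On chromosome 12, 14 hairpins of the imprinted cluster between Rtl1 and Dio3, among them Mir134, Mir377, Mir410 and Mir541, lay within 20 kb of a single peak of 86.3 and 127. The nearest of those was Mir3072 at 2.19 kb. The strongest peak near any of the hairpins, 608, lay 9.74 kb from Mir6363. A hairpin's neighbour peaks are shared within clusters, so these counts are of places and not of independent genes. The share of other desert sequence so close to a summit was not computed.

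The few members with the first column at or above the second are described as a group. They numbered 36 of 1885; over all autosomal peaks the share was 9.29%. Of them 26 (72.2%) lay within 200 kb of a protein-coding gene, against 49.9% of the other members. Within 1 kb of the end of another gene lay 6 (16.7%), against 6.44%. These shares rest on few peaks, and no interval was computed for them. The joint strength is the sum of the columns that defined the group. Its median was 75.7 against 148 in the other members, yet the 36 included the strong peaks near Foxn3 and at Gm13652. Among them were peaks inside Junos beside the immediate early gene Jun (55.2 and 18.7), 119 kb from the pluripotency factor gene Klf4 (87.7 and 49.1), and between 1600014C23Rik and Vegfa, an angiogenic factor gene (29.3 and 16.2). These 3 were picked out after their values were seen.

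The genes next to deserts were described through 2 lists. Of 40 genes of cortical transcription factors, 33 (82.5%) stood beside a desert, against 11.4% of all autosomal protein-coding genes. At 29 of those 33 the deserts held a peak (87.9%), against 58.6% over all genes beside a desert. Their density was 2.91 peaks per Mb, against 2.87 over all deserts. The median length of desert core beside them was 0.828 Mb, against 0.246 Mb over all, so the higher share with a peak came with more sequence at a like density.

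Most peaks of this list were beside Sox2, with 10. Sox2 keeps neural progenitors undifferentiated, and the strongest peak of its 2 deserts reached 674. Pou3f3, an upper-layer neuron factor gene, had 9, Zfhx3 8 and Zeb2, a gene of cortical development, 6. At Zfhx3 7 of the 8 lay in the desert on the side of Psmd7, at 14.3 peaks per Mb. At Zeb2 the 6 were spread over 3497 kb, at 1.72 per Mb. Of the genes with deserts, Eomes, Lmo3, Tbr1 and Zfhx4 had 0 desert peaks beside them. The core was 1358 kb long at Zfhx4, but only 78.6 kb at Eomes, 32.4 kb at Tbr1 and 6.16 kb at Lmo3. Cores so short leave little room for a peak at the density of deserts.

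Adhesion genes stood beside far longer deserts. Of 38 autosomal genes of the list, 33 (86.8%) stood beside one, with a median core of 3.35 Mb. The deserts held a peak at 30 of the 33 (90.9%), but the density was low, at 1.46 peaks per Mb against 2.87 over all deserts. It was close to the 1.36 of deserts with a core over 2000 kb. Cdh8 had 10 peaks and Cdh11 9, of which 5 lie in the desert the cadherin genes share, and Flrt2, whose product guides axons, had 9. Pcdh7 and Slitrk1, a synapse organiser gene, had 8 each. Beside Cdh7, Lrrtm4 and Pcdh8 there were 0. The longest core was 2173 kb at Cdh7 and 900 kb at Lrrtm4, but that of Pcdh8 was only 29.0 kb. Strong peaks of these deserts included 590.2 in a desert beside Pcdh10 and 456 in one beside Pcdh17. Another, of 560.0, lay in a desert beside Lrrc4c, 1605 kb from that gene.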

How the data were processed

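Reads were processed by the submitters with BWA, MACS2, SAMtools, Trimmomatic and FastQC on the builds GRCm38.p6 and mm10, per the submitters' processing notes. Versions, thresholds and the use of the inputs were not stated there. The deposited file holds, for each joint peak, the −log10 p values of both replicates and their sum, made by the authors per the column layout of the IDR program. The deposited IDR columns are scores on a −log10 scale with a cap of 5, made by the authors. Samples were grouped by title, and depth per library is unknown.

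Distances ran from each summit to the nearest base of 21774 protein-coding genes, after 348 genes on scaffolds were left out of RefSeq's table, which gives no exons. Medians, shares and densities were computed with Python 3.11.15, numpy 2.4.6, pandas 2.3.3 and scipy 1.17.1, and figures with matplotlib 3.10.9. The interval of a difference of medians combines both medians' exact intervals. Distances and core lengths were tested on simulated deserts, with 0 wrong distances among 5700 positions.

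The members and both gene lists were chosen with earlier results of these data known. Named were the 10 strongest and 10 farthest peaks, the 10 fullest and 5 widest empty deserts, the 5 genes of each list with most peaks and the 3 peaks on either side of the threshold; others named (close groups, non-coding hosts, receptor loci, microRNAs, genes with 0 peaks) were chosen after their values were seen. A gene that this rule names is not reported here. The motif share was planned for 300 bases around every summit; with no genome used here, RefSeq's promoter windows took their place. Alternatives were distances of 50 and 200 kb, peak bounds instead of summits, predicted genes left out, an IDR of 0.01, stronger peaks, single columns and chromosome 4 left out; receptor loci taken as genes and the second motif form were added after the data were seen.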

Additional observations from a re-analysis of the deposited data

How the results depend on the processing

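No difference in density, joint strength, column ratio, width or spacing changed direction under the alternatives run. With a distance of 50 kb the share of autosomal peaks was 10.05%, the density ratio 0.208, the joint difference −15.4, the spacing difference 26.95 kb and the exact motif share 34.4% of 32 windows, no longer below the 33.9% of windows with another summit. With 200 kb they were 2.83%, 0.124, −25.9, 89.9 kb and 0% of 10, the width difference was −198 bp and the log2 ratio difference 0.63. The second-column difference had an interval spanning 0 at both (−1.49, −6.93 to 5.69, and −10.3, −21.5 to 0.85). At an IDR of 0.01 the share was 5.22%, the density ratio 0.146 and the spacing difference 63.9 kb. Above the median joint strength they were 5.04%, 0.141 and 84.1 kb, with a log2 ratio difference of 0.65. Without predicted genes the share was 6.08%. With the interior of other genes alone, 20.0% of desert peaks counted as at other genes. The second motif form gave 33.3%, against 52.3% of windows with another summit.

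Taking peaks above the autosomal median of a given column, whatever their other column, gave shares of 3.54 to 5.38% and density ratios of 0.0975 to 0.151. Width differences were −205 to −192.5 bp, spacing differences 79.3 to 102.6 kb, and 23.3 to 29.4% lay at other genes. The lowest share and density ratio came from the first column. Every listed peak had been joined over both replicates, so this choice does not leave a replicate out. The shares restate the counts of 585 and 890 desert peaks given above. The strength differences of the single columns over all peaks were −12.2 to −8.14. Leaving out chromosome 4, using the nearest base of the peak, or taking receptor loci as genes moved no value beyond its interval. A motif window of 100 bases was not run, because no genome was used. No paired analysis was possible because the peak columns carry no replicate number and the inputs have no column.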
